A study of Mus musculus with 12 samples.

Results

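*Malat1*, *Neat1*, *Miat*, *Rmst*, *Six3os1*, *Tug1*, *Snhg11* and *Gas5* are 8 long transcripts that are best known for acting as RNA and that neurons or retinal cells make. They were listed by name, by a rule that uses no measured value, though with earlier results of these data known, and all 8 were found among the 38720 genes listed for each cell fraction. RNA was sequenced from the retinas of newborn mice (postnatal day 0, strain C57/BL6) in 4 groups of 3 libraries each. The mKO mice carried *Math5-Cre* and homozygous floxed *Ezh2* alleles. *Ezh2* encodes the methyltransferase of Polycomb repressive complex 2, which places repressive marks on histone H3, and the loxP sites flank the exons of its catalytic SET domain. Cre was driven from *Math5* (*Atoh7*), a gene of retinal progenitors that is needed for retinal ganglion cells (RGCs) to form. The paper cites that only a minor part of *Math5*-expressing cells become RGCs, and that others become photoreceptors or amacrine cells. Deletion was thus limited to cells that had expressed *Math5*. It reached only a portion of the RGCs and could also reach some non-RGCs. The other mice are labelled wild type (WT). The study's methods name floxed littermates without Cre as the usual controls, and which kind served here was not settled. Retinas were dissociated with papain, RGCs were taken out with magnetic beads against Thy-1 (CD90), and the cells left behind are called non-RGCs. Each group had 3 RNA extractions, and whether each came from a separate animal or a pool is not stated, so p-values measure the spread between extractions. In such bulk samples, fewer cells of a type and less RNA per cell cannot be told apart.

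Long noncoding RNAs are made by the same polymerase as messenger RNA, and many stay in the nucleus. *Malat1* gathers in nuclear speckles, where splicing factors are stored, and *Neat1* is the scaffold around which paraspeckles form. *Miat* (Gomafu) and *Rmst* mark neural cells, *Six3os1* is transcribed away from the eye-field gene *Six3*, *Tug1* was found in the retina as a taurine-induced transcript, and *Snhg11* and *Gas5* are host genes whose introns hold small RNAs. The comparison of mKO with WT asked whether any of these RNAs differed between the genotypes. The interaction asked whether that change differed between RGCs and non-RGCs. Neither kind of control carries the *Math5-Cre* knock-in, so effects of the *Ezh2* deletion and of the Cre allele cannot be told apart.

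The deposited values are genotype means, from which the whole reads of each library were recovered. Recovery gave no replicate numbers, so letters A to C name the libraries of a group by falling depth. They held 7139633 to 13014004 reads on genes, and mKO non-RGC C was the shallowest. A normalised read count is the reads of a library divided by its size factor. The 12 RGC markers summed to 2059 to 2130 RPM (reads scaled by the library's total) in the mKO RGC libraries, 2619 to 2766 in WT RGC, 608 to 814 in mKO non-RGC and 513 to 539 in WT non-RGC. Of these 12 markers, 10 were lower in mKO RGCs and 8 were higher in mKO non-RGCs at an adjusted p under 0.05. Markers of other cells were also lower in mKO RGCs, namely 5 of 8 amacrine, 4 of 10 photoreceptor, 4 of 10 progenitor, 3 of 7 glial and 1 of 6 vascular markers, with none of them higher. In mKO non-RGCs the numbers lower were 3, 4, 1, 1 and 0. No call was made among 7 microglial markers in RGCs or 6 in non-RGCs. Of all genes tested, 21.2% were lower and 16.3% higher in RGCs, against 6.43% and 4.18% in non-RGCs. These marker calls were made without correction for GC content. *Thy1* itself held 1.94 to 9.38 normalised read counts in WT non-RGCs and 67 to 93.2 in mKO non-RGCs. Its log2 fold change there was 3.86 ± 0.46 (limma adjusted p = 0.0048). In RGCs *Thy1* was lower, at 1422 to 1426 in mKO against 2208 to 2519 in WT (-0.73 ± 0.06; limma adjusted p = 0.000651). After correction for GC content the RGC value was -0.41 (limma adjusted p = 0.0148). After correction for GC content and read density it was -0.26 (limma adjusted p = 0.0572). All 5 blood markers were higher in mKO in both fractions, with sums of 24.3 to 30.2 against 9.34 to 11 RPM in RGCs and 56.9 to 85.9 against 11.7 to 19.2 in non-RGCs. WT RGC C stood apart, with a summed progenitor marker level of 2005 RPM, against 1196 and 1249 in the other WT RGC libraries. WT non-RGC B held 153 RPM of the collagen gene *Col1a2*, against at most 13.9 in the other WT non-RGC libraries, though RGC libraries reached 335, a gene singled out after its values were seen. No marker of any list was at 0 in every library.

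The *Ezh2* row could not check the genotype, since the reads of its undeleted exons are counted with the rest. It held 1354 to 1476 normalised read counts in mKO RGCs and 1190 to 1678 in WT RGCs, a log2 fold change of 0.09 ± 0.13 (SE, n = 3 per group; limma adjusted p = 0.637). Without WT RGC C the value was 0.25, with a limma adjusted p of 0.00416. In non-RGCs the *Ezh2* row gave 0.13 ± 0.15 (limma adjusted p = 0.584).

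The 8 RNAs spanned a wide range of levels. Reads were scaled here by library size and by the length of exon that no other annotated gene shares (RPKM), so that levels could be compared between genes. The unshared length was used because other annotated genes overlap these exons. Duplicate reads had been removed before counting, which can hold down the levels of densely read genes. The order of levels was not worked out with duplicates added back. Separately, 29 rows of the tables are named for conserved segments of *Malat1*, *Neat1*, *Miat*, *Rmst*, *Six3os1* and *Tug1*, and 25 of them were at 0 reads in every library, as were the antisense genes *Gm26953* over *Miat* and *Gm26700* over *Rmst*. In WT RGCs the mean level was 62.9 ± 18.5 RPKM for *Miat*, 48.0 ± 4.77 for *Malat1*, 31.1 ± 4.49 for *Six3os1*, 29.3 ± 8.07 for *Snhg11*, 16.4 ± 2.93 for *Gas5*, 11.9 ± 0.424 for *Tug1*, 1.66 ± 0.269 for *Rmst* and 0.0907 ± 0.00519 for *Neat1* (SD, n = 3). *Miat* and *Malat1* overlapped in their libraries, as did *Six3os1* and *Snhg11*, and every other neighbour in that order was apart. In mKO RGCs the order ran from *Malat1* (58.8 ± 14.6) and *Miat* (55.3 ± 10.9), which overlapped, through *Snhg11* (35.1 ± 7.08) and *Six3os1* (30.1 ± 0.681), which overlapped, to *Gas5* (18 ± 0.536), *Tug1* (16.6 ± 0.245), *Rmst* (3.82 ± 0.561) and *Neat1* (0.204 ± 0.0541).

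In non-RGCs the order was alike save for *Snhg11*. In WT non-RGCs *Miat* (70.4 ± 22.9 RPKM) and *Malat1* (56.7 ± 4.87) overlapped, and *Six3os1* (39.3 ± 2.56), *Gas5* (19.2 ± 1.77) and *Tug1* (13.5 ± 1.19) followed apart from each other. *Rmst* (1.72 ± 0.755) and *Snhg11* (1.46 ± 1.31) overlapped, and *Neat1* was lowest at 0.128 ± 0.0364. In mKO non-RGCs the values were 69.3 ± 13.2 for *Malat1*, 58.5 ± 11.5 for *Miat*, 37.5 ± 2.81 for *Six3os1*, 24.8 ± 4.93 for *Gas5*, 15.9 ± 1.29 for *Tug1*, 5.61 ± 0.977 for *Rmst*, 3.08 ± 1.29 for *Snhg11* and 0.284 ± 0.0420 for *Neat1*. Only *Malat1* and *Miat* overlapped there. With the full exon length in place of the unshared length, *Malat1* came before *Miat* in all 4 groups, in WT RGCs *Snhg11* came before *Six3os1*, and in WT non-RGCs *Snhg11* came before *Rmst*. By normalised read count *Malat1*, *Miat* and *Six3os1* lay above at least 98.0% of genes averaging 10 or more in every group, whereas *Neat1* lay above at most 19% and *Rmst* above at most 36.9%. So *Neat1* and *Rmst* were not abundant among the reads of these libraries. The libraries were made by poly-A selection, and *Neat1* is known to end partly without a poly-A tail. Its full level in the cells was therefore not measured. *Snhg11* is listed as protein coding in the annotation used, although its name and its intronic small RNAs class it as a host gene.

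**Figure D1:**
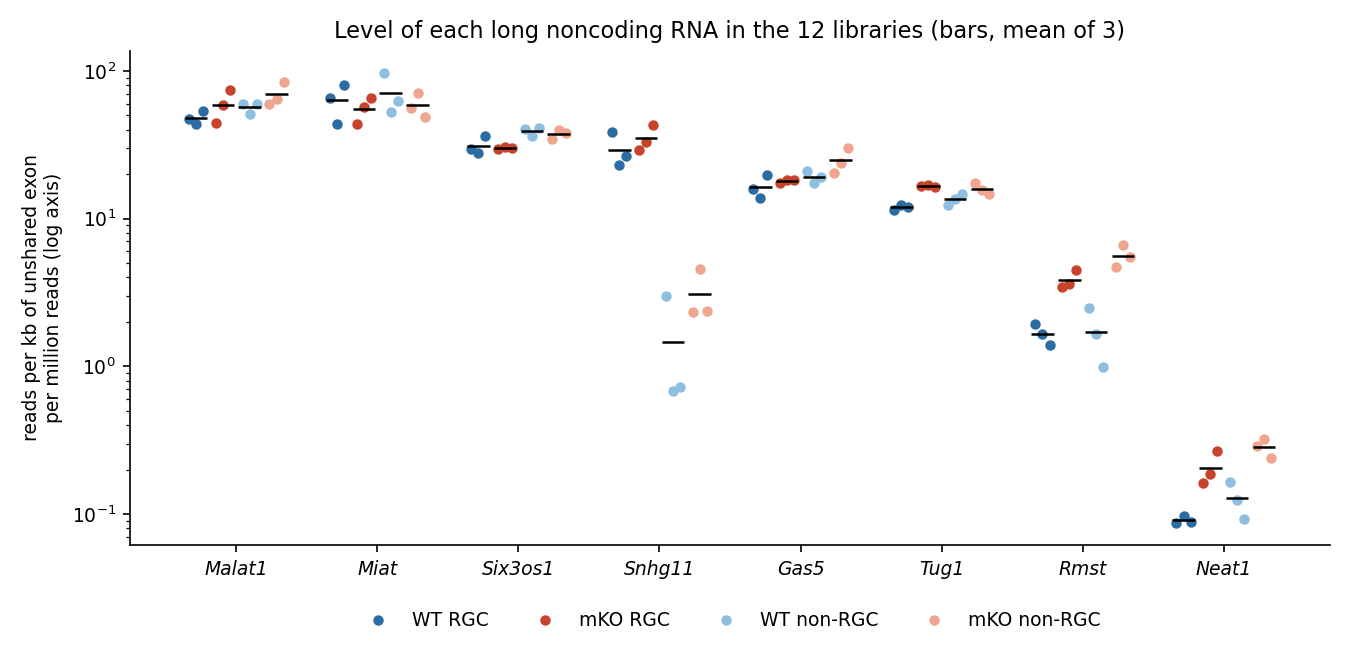
Level of each RNA (y axis, RPKM over unshared exon length, log scale) in the 12 libraries, with 1 point per library, coloured by group, and a bar at the mean of 3. *Malat1* and *Miat* lie at the top in every group, *Snhg11* lies close to *Six3os1* in the RGC fraction and far below it in non-RGCs, and *Neat1* lies lowest throughout.

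Of the 8 RNAs, 3 were higher in mKO than in WT RGCs (*Rmst*, *Tug1* and *Neat1*) and none was lower, at a limma adjusted p under 0.05. Among all 16085 genes tested in RGCs, 37.5% passed, 16.3% higher and 21.2% lower, so calls were common in this comparison. In non-RGCs *Rmst* alone of the 8 passed, where 10.6% of 15326 genes did, 4.18% higher and 6.43% lower. Much of the RGC background followed base composition. Over the 12262 RGC genes that averaged 50 or more, log2 fold changes fell with exon GC content (Spearman's rho of -0.72). Over 11713 such non-RGC genes rho was -0.49. These are correlations across genes, and genes are no independent replicates. Of 5 equal sets of genes by GC content, the lowest, up to 43.8%, had a median log2 fold change of 0.35 in RGCs and 0.17 in non-RGCs, while the highest had -0.45 and -0.34. *Malat1*, *Rmst*, *Tug1* and *Gas5* lie in the lowest set, and *Miat* and *Six3os1* in the fourth. Main results are therefore given also after the trend with GC content was removed from every library, after which 13.8% of 15185 RGC genes and 1.43% of 14497 non-RGC genes passed. With the trends with GC content and read density both removed, the shares were 6.06% and 1.85%. 

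**Figure D2:**
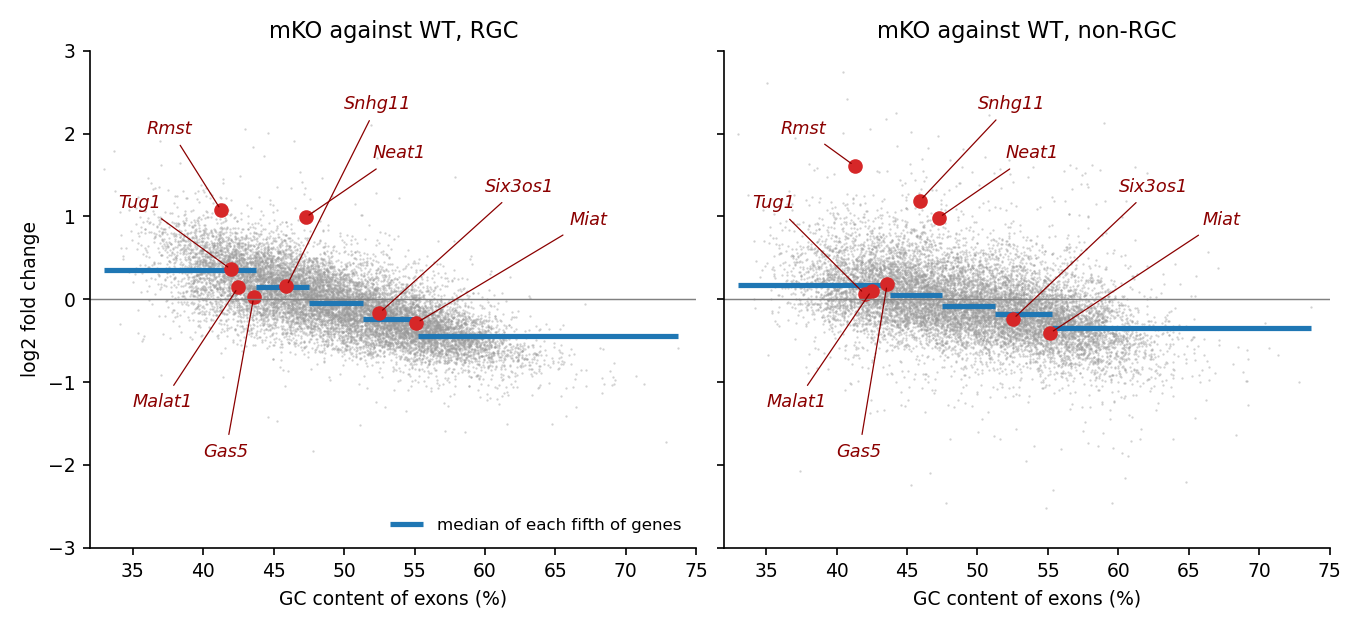
Log2 fold change of mKO over WT (y axis) against exon GC content (x axis, %) for genes averaging 50 or more (grey points) and the 8 RNAs (red), with blue bars at the median of each of 5 equal sets of genes. Of the grey points, 2 in RGCs and 6 in non-RGCs lie beyond 3 in size and are not drawn. *Tug1* lies on the median of its set in RGCs, and *Rmst* and *Neat1* lie above theirs.

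**Figure D3:**
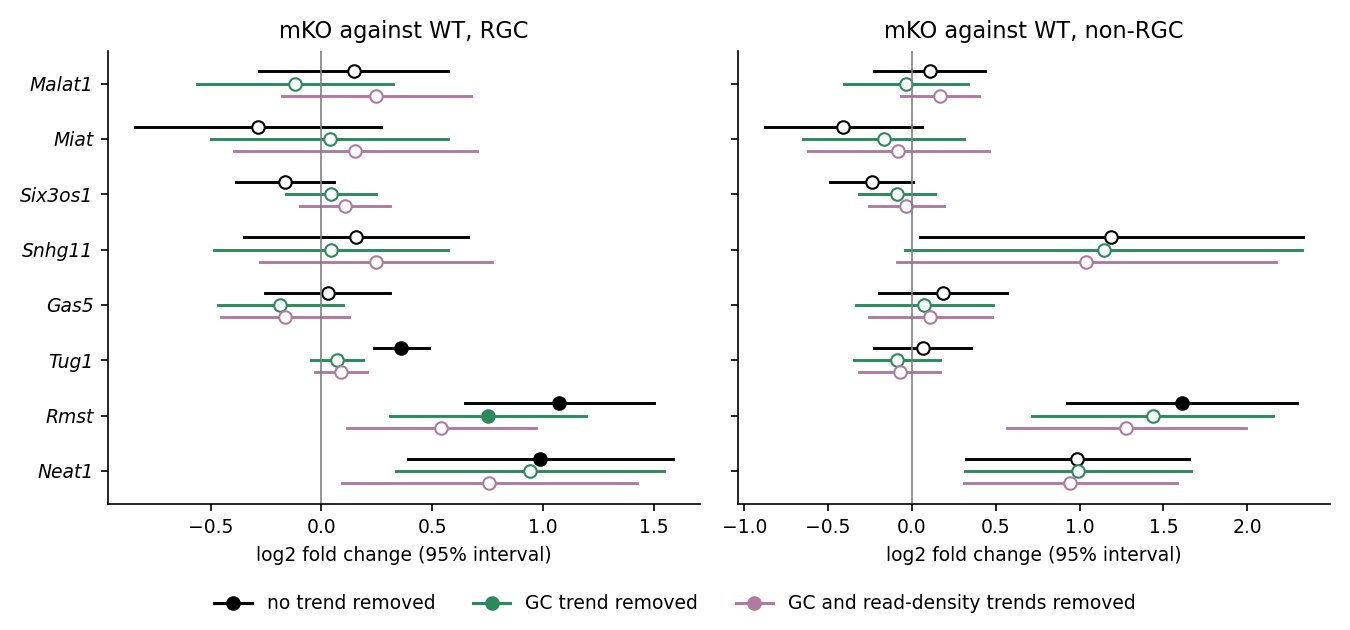
Log2 fold change (x axis) of the 8 RNAs with 95% intervals from limma in RGCs and non-RGCs, without and with removal of the trends with GC content and read density. Filled points passed an adjusted p under 0.05. In RGCs 3 points are filled with no trend removed, 1 after removal of the GC trend (*Rmst*) and 0 after removal of both.

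*Rmst* (rhabdomyosarcoma 2 associated transcript) is a neural RNA that is known to act with the transcription factor SOX2 in neurogenesis. It lies on chromosome 10, 92071037 to 92165170, on the minus strand (GRCm38), with 14 transcripts in the annotation and 7423 exonic bases of 41.3% GC, and 2 microRNAs lie in its introns. Their RefSeq sequences are shown because they lie on its strand and *Rmst* had the largest fold change of the 8 RNAs with no trend removed. That held in RGCs and in non-RGCs. In RGCs the log2 fold change of *Neat1* was larger with the GC trend removed (0.94 against 0.75) and with both trends removed (0.76 against 0.54). The seed (bases 2 to 8) is in capitals (GRCm38.p6, minus strand, chr10:92072141-92072163 and chr10:92137190-92137210).
miR-135a-5p: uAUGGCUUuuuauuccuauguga
miR-1251-5p: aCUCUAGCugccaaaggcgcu
Poly-A selection leaves mature microRNAs unmeasured, and the rows *Mir135a-2* and *Mir1251* held at most 2.88 normalised read counts in any library.

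The *Rmst* row held 176, 186 and 236 normalised read counts in mKO RGCs and 109, 95.5 and 78.2 in WT RGCs. Each mKO library was above each WT library, which held for 24.8% of all genes tested. The log2 fold change was 1.07 ± 0.18 (SE, n = 3 per group; 95% interval 0.65 to 1.5; limma adjusted p = 0.00434). With the GC trend removed it was 0.75 ± 0.19 (limma adjusted p = 0.0427), and with both trends removed 0.54 ± 0.18, which did not pass (limma adjusted p = 0.124). In non-RGCs the values were 212, 298 and 250 in mKO and 125, 83.2 and 52.1 in WT, again without overlap, which held for 17.5% of genes in that direction. The log2 fold change there was 1.61 ± 0.31 (95% interval 0.93 to 2.29; limma adjusted p = 0.0157). It was 1.44 after removal of the GC trend and 1.28 after removal of both, and the call was lost (limma adjusted p = 0.0599 and 0.0685). It was also lost without mKO non-RGC B, at a log2 fold change of 1.49 (limma adjusted p = 0.0821). The nearest protein-coding genes, *Tmpo* at 889722 bases and *Nedd1* at 519576 bases, did not pass in either fraction (log2 fold changes of -0.09 and 0.36 in RGCs, -0.15 and 0.31 in non-RGCs). Without WT RGC C, however, *Nedd1* gave 0.54 (limma adjusted p = 0.00441).

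*Neat1* and *Malat1* lie next to each other on chromosome 19, on the minus strand, at 5824708 to 5845478 and 5795690 to 5802672 (GRCm38). Their 3′ ends are shown because the libraries were made by poly-A selection and these RNAs are known to end partly without a poly-A tail. In the long *Neat1* transcript (20771 bases, ending at chr19:5824708-5824802) and in *Malat1* (chr19:5795923-5796073) U-rich tracts and an A-rich tract, in capitals, are known to fold into a triple helix, and in *Malat1* the small tRNA-like RNA that is cut off follows the A-rich tract.
Neat1 long transcript: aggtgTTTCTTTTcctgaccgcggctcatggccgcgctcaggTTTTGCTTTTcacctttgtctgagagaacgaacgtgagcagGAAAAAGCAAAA
Malat1: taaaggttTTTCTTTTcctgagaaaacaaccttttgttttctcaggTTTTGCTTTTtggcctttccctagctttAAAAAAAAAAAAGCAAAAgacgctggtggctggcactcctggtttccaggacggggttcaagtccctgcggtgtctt
The short *Neat1* transcript (3004 bases, chr19:5842307-5842356) and the annotated end of *Malat1* (chr19:5795690-5795739), which lies 292 bases after the A-rich tract, hold the polyadenylation signal AATAAA (capitals) within their last 50 bases, as do 26.6% of the 141767 annotated transcripts on the sense strand.
Neat1 short transcript: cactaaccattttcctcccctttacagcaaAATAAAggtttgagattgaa
Malat1 end: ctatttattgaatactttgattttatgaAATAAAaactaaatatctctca
The deposited rows sum over both *Neat1* transcripts, which therefore could not be compared.

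The *Neat1* row held 37.5, 43.3 and 63.0 normalised read counts in mKO RGCs and 22.3, 25 and 22.2 in WT RGCs, which are 43 to 67 and 19 to 23 reads. All mKO libraries were above all WT libraries, as for 24.8% of genes, with mKO RGC C the highest. The log2 fold change was 0.99 ± 0.25 (SE, n = 3 per group; 95% interval 0.39 to 1.59; limma adjusted p = 0.0211). The call was lost without mKO RGC B, mKO RGC C or WT RGC A (log2 fold changes of 1.04, 0.78 and 0.96; limma adjusted p of 0.0613, 0.0713 and 0.0575). It was also lost with the GC trend removed (0.94; limma adjusted p = 0.0535) and with both trends removed (0.76; limma adjusted p = 0.156). In non-RGCs the values were 57.8, 65.2 and 49.4 in mKO and 37.0, 28.1 and 21.9 in WT, without overlap, as for 17.5% of genes in that direction. The log2 fold change was 0.99 ± 0.30 (limma adjusted p = 0.0617). It was also 0.99 after removal of the GC trend (limma adjusted p = 0.104). With libraries scaled by total reads it was 1.15 (limma adjusted p = 0.0431), a scaling that moved the median of all non-RGC genes by 0.17. The fitted difference between the fractions was 0.00 ± 0.38 (limma adjusted p = 0.999), with a 95% interval from -0.82 to 0.83.

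*Malat1* held 3252, 4304 and 5540 normalised read counts in mKO RGCs and 3782, 3571 and 4236 in WT RGCs. The groups overlapped, the mKO libraries spanned the wider range, and the log2 fold change was 0.15 ± 0.18 (SE, n = 3 per group; 95% interval -0.28 to 0.57; limma adjusted p = 0.555). Without mKO RGC C it was -0.04, and with the GC trend removed -0.12. In non-RGCs *Malat1* held 3774, 4093 and 5468 in mKO and 4213, 3638 and 4425 in WT, with a log2 fold change of 0.11 ± 0.15 (95% interval -0.23 to 0.44; limma adjusted p = 0.664). *Frmd8*, a protein-coding gene 4224 bases from *Neat1*, was lower in mKO RGCs (log2 fold change -0.39 ± 0.11; limma adjusted p = 0.0273). Its exons hold 55.9% GC, and with the GC trend removed the value was -0.04 (limma adjusted p = 0.843). The *Frmd8* call was also lost without mKO RGC B or mKO RGC C (-0.35 and -0.36; limma adjusted p of 0.0982 and 0.0978).

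*Tug1* was the third RNA that was higher in mKO RGCs. It lies on chromosome 11, 3639785 to 3649673, on the minus strand, with 9734 exonic bases of 42.0% GC, and it shares 483 exonic bases with the chromatin gene *Morc2a* on the other strand. The end of 1 transcript of it and of 1 of *Rmst* are shown for comparison with *Neat1*, since both hold AATAAA (capitals) near the end (chr11:3639785-3639834 and chr10:92081746-92081795).
Tug1: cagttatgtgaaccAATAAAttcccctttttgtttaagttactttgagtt
Rmst: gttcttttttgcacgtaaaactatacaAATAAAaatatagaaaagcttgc
The *Tug1* row held 1627, 1664 and 1645 normalised read counts in mKO RGCs and 1229, 1335 and 1281 in WT RGCs. All mKO libraries were above all WT libraries, as for 24.8% of genes. The log2 fold change was 0.36 ± 0.05 (SE, n = 3 per group; 95% interval 0.24 to 0.49; limma adjusted p = 0.00255). The median of all genes in the same GC set was 0.35, and 51.5% of them were called higher. With the GC trend removed the value was 0.07 ± 0.05 (limma adjusted p = 0.365), and with both trends removed 0.09 ± 0.05 (limma adjusted p = 0.313). In non-RGCs the values overlapped, at 1471, 1326 and 1281 in mKO and 1163, 1284 and 1465 in WT, with a log2 fold change of 0.06 ± 0.13 (limma adjusted p = 0.771). The difference between the fractions was 0.30 ± 0.13 (95% interval 0.01 to 0.59; limma adjusted p = 0.493), which did not pass. *Morc2a* gave 0.14 ± 0.05 in RGCs and -0.24 ± 0.13 in non-RGCs (limma adjusted p = 0.0803 and 0.248), and with both trends removed it passed in RGCs (0.31; limma adjusted p = 0.0323).

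*Miat* lies on chromosome 5, 112213228 to 112229395, on the minus strand, with 9293 exonic bases of 55.1% GC. *Miat* is known for repeats of UACUAAC, the branch point sequence that splicing factor SF1 binds. They are shown, in capitals as TACTAAC, in 2 stretches of the last exon of its 9163-base transcript (chr5:112217311-112217460 and chr5:112216756-112216810).
Miat first cluster: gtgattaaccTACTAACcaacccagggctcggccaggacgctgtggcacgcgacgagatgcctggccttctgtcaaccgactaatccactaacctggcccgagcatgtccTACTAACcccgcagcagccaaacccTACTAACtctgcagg
Miat second cluster: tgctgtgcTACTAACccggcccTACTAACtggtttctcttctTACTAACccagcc
These 6 copies on the sense strand were the most in any transcript of the 8 RNAs. At least 6 copies were held by 5 of the 141767 annotated transcripts, 2 of them from *Miat*, and at least 1 copy by 3.6%.

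The *Miat* row held 3211, 4196 and 4929 normalised read counts in mKO RGCs and 5263, 3561 and 6414 in WT RGCs. The groups overlapped, and the log2 fold change was -0.29 ± 0.24 (SE, n = 3 per group; 95% interval -0.84 to 0.27; limma adjusted p = 0.375). In non-RGCs it held 3559, 4535 and 3169 in mKO and 6828, 3777 and 4643 in WT, with WT non-RGC A the highest, and the log2 fold change was -0.41 ± 0.21 (95% interval -0.88 to 0.06; limma adjusted p = 0.220). With the GC trend removed the values were 0.04 and -0.17. *Cryba4*, a lens crystallin gene 17098 bases away, gave -0.19 ± 0.29 in RGCs (limma adjusted p = 0.641).

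*Six3os1* is transcribed on the minus strand of chromosome 17, 85600651 to 85618398, and overlaps *Six3*, the homeobox gene of forebrain and eye, by 106 exonic bases on the opposite strand. The library kit is not stated to keep strand, so reads over those bases could not be told apart. *Six3os1* held 3532, 3728 and 3726 normalised read counts in mKO RGCs and 3885, 3738 and 4754 in WT RGCs. The ranges met without crossing, with all mKO libraries just below the lowest WT library, which held for 28.2% of genes in that direction. The log2 fold change was -0.16 ± 0.09 (SE, n = 3 per group; 95% interval -0.39 to 0.06; limma adjusted p = 0.211). The direction turned after removal of the GC trend (0.043; limma adjusted p = 0.771) or of both (0.11; limma adjusted p = 0.487). In non-RGCs the values were 3614, 4187 and 4068 in mKO and 4683, 4274 and 5066 in WT, a log2 fold change of -0.24 ± 0.11 (95% interval -0.49 to 0.01; limma adjusted p = 0.177), with the mKO libraries again lower, as for 19.2% of genes.

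*Six3* itself was lower in mKO RGCs, at 2164, 2242 and 2286 against 3250, 3315 and 3424 normalised read counts. Its log2 fold change was -0.58 ± 0.05 (limma adjusted p = 0.000651), and it passed with the GC trend removed (-0.31; limma adjusted p = 0.0108) but not with both trends removed (-0.16; limma adjusted p = 0.0844). Within a library, where depth cancels, the ratio of *Six3os1* to *Six3* reads was 1.63, 1.66 and 1.63 in mKO RGCs and 1.2, 1.13 and 1.39 in WT RGCs. The means of 1.64 ± 0.0185 and 1.24 ± 0.135 (SD, n = 3) gave an exact permutation p of 0.1 (two-sided), the smallest that 3 libraries against 3 can give. The exons of *Six3os1* and *Six3* hold 52.5% and 54.0% GC. The part of the trends with GC content and read density in this ratio was not tested. In non-RGCs the ratio was 2.07, 2.05 and 1.65 in mKO and 1.75, 1.55 and 1.52 in WT, which overlapped (exact permutation p = 0.2, two-sided, n = 3 per group), and *Six3* gave -0.50 ± 0.15 (limma adjusted p = 0.0619, and 0.0319 without mKO non-RGC C at -0.63). *Six2*, a kidney and head homeobox gene 65879 bases away, held 32.9 to 42.8 in mKO RGCs and 72.0 to 99.2 in WT RGCs (-1.17 ± 0.20; limma adjusted p = 0.00487). Its exons hold 61.2% GC, and with the GC trend removed it did not pass (-0.58; limma adjusted p = 0.104). In non-RGCs *Six2* gave -0.46 ± 0.21 (limma adjusted p = 0.178). *Camkmt*, on the other side, did not pass in either fraction (0.13 and 0.40; limma adjusted p = 0.469 and 0.356).

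**Figure D4:**
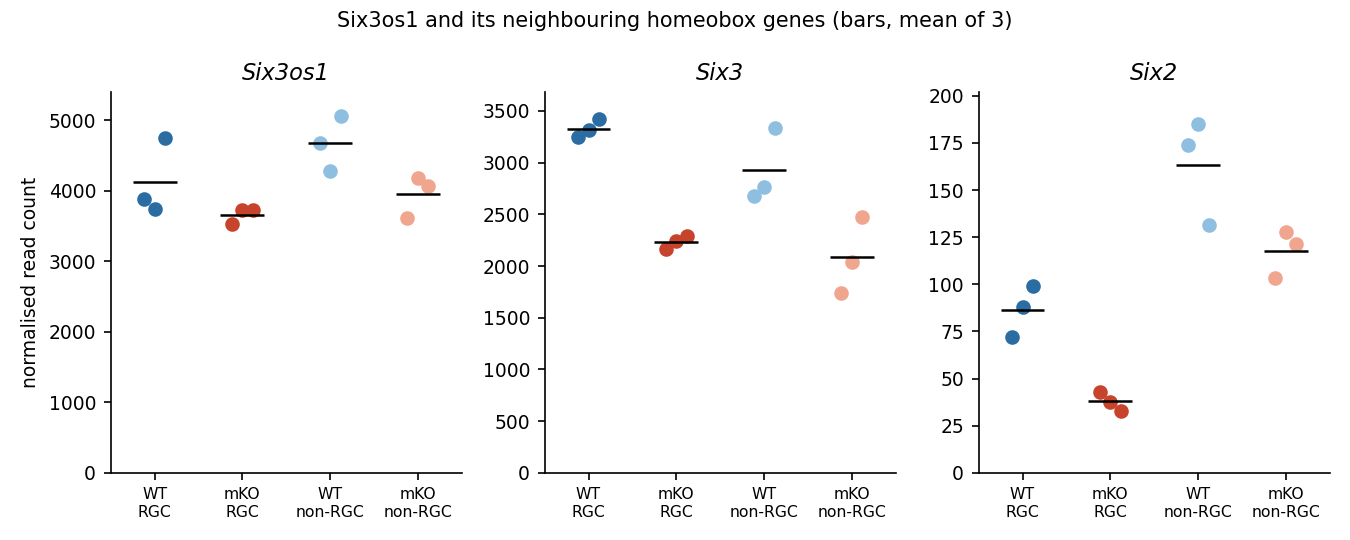
Normalised read counts (y axes, from 0) of *Six3os1*, *Six3* and *Six2* in each library of the 4 groups, with bars at the mean of 3. In RGCs *Six3* and *Six2* lie lower in every mKO library, as does *Six3os1* by a narrow margin, with WT RGC C at 4754 the highest. Such a separation held for 28.2% of genes. RGC and non-RGC values were normalised separately.

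*Snhg11* was the RNA that set RGCs apart. It lies on chromosome 2, 158375638 to 158386145, on the plus strand, with 8521 exonic bases of 45.9% GC, and is known as a host gene of small nucleolar RNAs that is strong in neurons. In RPM it was 20.1-fold higher in RGCs than in non-RGCs of WT mice (245 ± 67.7 against 12.2 ± 11, SD, n = 3) and 11.4-fold higher in mKO mice (294 ± 59.4 against 25.9 ± 10.8). Without WT non-RGC A the WT ratio was 41.9. The lowest RGC library was 7.71 times the highest non-RGC library in WT mice and 6.40 times in mKO mice. The tables were normalised separately, and no test of levels was run between the fractions. The ratio of RGC to non-RGC means was at least 0.681 for the other 7 RNAs, and above 1 only for *Tug1* in mKO mice. *Six3os1* was lower in RGCs without overlap in both genotypes (ratios of 0.792 in WT and 0.801 in mKO). So were *Rmst* and *Gas5* in mKO (0.681 and 0.728), and *Tug1* in WT (0.882). How many of all genes separated in this way between the fractions was not counted, so these separations are not set apart from the background.

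The *Snhg11* row held 2789, 3175 and 4204 normalised read counts in mKO RGCs and 4018, 2434 and 2752 in WT RGCs. The groups overlapped, and the log2 fold change was 0.16 ± 0.21 (SE, n = 3 per group; 95% interval -0.35 to 0.66; limma adjusted p = 0.596). In non-RGCs it held 193, 379 and 199 in mKO and 273, 62.9 and 69.9 in WT. WT non-RGC A reached into the mKO range while the other WT libraries lay well below it. The log2 fold change was 1.19 ± 0.51 (95% interval 0.05 to 2.33; limma adjusted p = 0.153). Without WT non-RGC A it was 1.86 and passed (limma adjusted p = 0.0208). After removal of the GC trend the values were 0.044 in RGCs and 1.14 in non-RGCs (limma adjusted p = 0.916 and 0.226). The summed RGC marker level of WT non-RGC A was 514 RPM, against 539 and 513 in WT non-RGC B and C, so the markers did not stand out in that library. The mKO non-RGC libraries were higher in the RGC markers, at 608, 729 and 814, and in *Thy1*, and the part of remaining RGCs in the *Snhg11* values was not tested. The difference between the fractions was -1.03 ± 0.64 (95% interval -2.42 to 0.35; limma adjusted p = 0.576). The small RNA gene *Gm25129* inside *Snhg11* held at most 18.8 normalised read counts, and its neighbours *Lbp* and *Ralgapb* did not pass in either fraction.

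**Figure D5:**
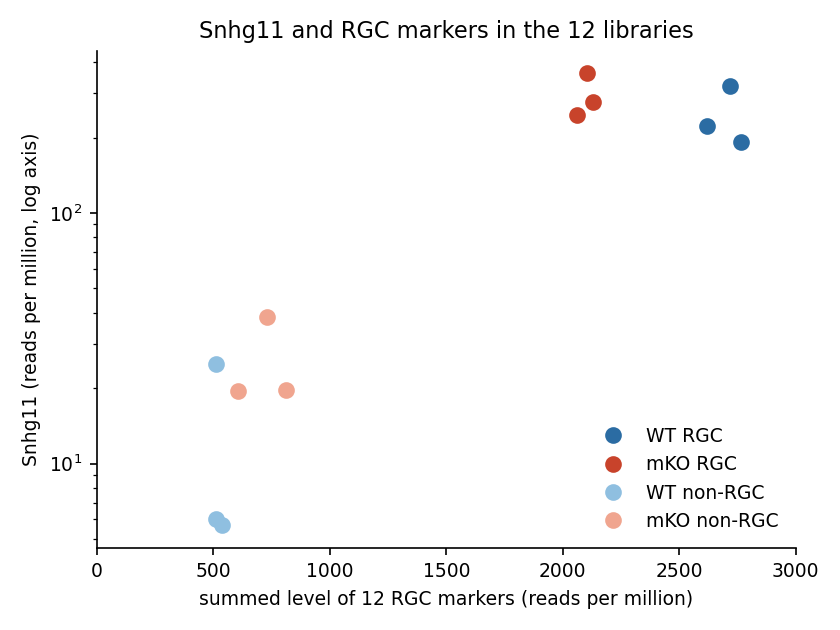
*Snhg11* (y axis, RPM, log scale) against the summed level of the 12 RGC markers (x axis, RPM) in the 12 libraries, 1 point each, coloured by group. RGC libraries lie at the upper right in both genotypes, and of the WT non-RGC libraries 1 lies at 24.9 and the others at 5.69 and 6.04 RPM of *Snhg11*.

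*Gas5* (growth arrest specific 5) is a host gene of box C/D small nucleolar RNAs whose mature RNA begins with a run of pyrimidines, the feature by which its decay is tied to translation as in ribosomal protein messages. It lies on chromosome 1, 161034422 to 161038539, on the plus strand, with 3760 exonic bases of 43.6% GC. The start of a transcript that begins with such a run (capitals, 5 bases) is shown for this reason (chr1:161035166-161035205).
Gas5: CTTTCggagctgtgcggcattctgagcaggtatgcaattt
The *Gas5* row held 611, 649 and 661 normalised read counts in mKO RGCs and 608, 542 and 749 in WT RGCs. It had the smallest fold change of the 8 RNAs in RGCs, 0.03 ± 0.12 on the log2 scale (SE, n = 3 per group; 95% interval -0.25 to 0.31; limma adjusted p = 0.870). With the GC trend removed it was -0.19 ± 0.12 (limma adjusted p = 0.332). In non-RGCs *Gas5* held 625, 723 and 939 in mKO and 711, 596 and 682 in WT (0.18 ± 0.17; 95% interval -0.20 to 0.57; limma adjusted p = 0.496). The rows of the small RNAs inside it, such as *Snord47*, were at 0 in every library. *Snord47* shares 77 bases with annotated *Gas5* exons on the same strand, and the libraries were poly-A selected. These rows therefore do not show whether the small RNAs were made.

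Genes around *Gas5* passed the test where *Gas5* did not, and the difference between them was not tested. *Zbtb37*, a zinc finger gene that overlaps it on the other strand, was higher in mKO RGCs, at 468 to 675 against 239 to 433 normalised read counts (0.79 ± 0.23; limma adjusted p = 0.0314). The call was lost without mKO RGC A, mKO RGC C or WT RGC A (0.81, 0.65 and 0.79; limma adjusted p of 0.0839, 0.111 and 0.0771), and with the GC trend removed (0.48; limma adjusted p = 0.209). *Serpinc1*, the gene of the liver protein antithrombin, was low in all groups and higher in mKO in both fractions. It held 22.7, 32.3 and 37.6 normalised read counts in mKO RGCs against 14.2, 6.51 and 1.17 in WT RGCs (2.31 ± 0.68; limma adjusted p = 0.0346), and 25.4, 30.7 and 26.8 in mKO non-RGCs against 9.02, 3.87 and 2.09 in WT non-RGCs (2.42 ± 0.48; limma adjusted p = 0.0185). In RGCs that call was lost without any 1 of the 3 mKO libraries or WT RGC B, with limma adjusted p between 0.0588 and 0.110, and with the GC trend removed (2.22; limma adjusted p = 0.0775). In non-RGCs it was lost without mKO non-RGC B or WT non-RGC B (2.35 and 2.36; limma adjusted p = 0.0937 and 0.0524) and with the GC trend removed (2.40; limma adjusted p = 0.0512), but it passed with both trends removed (2.36; limma adjusted p = 0.0460).

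The test of the difference between the fractions found no member whose change from WT to mKO differed. Of 14894 genes tested, 0.107% passed. In all 16 of them the log2 fold change of mKO over WT was lower in RGCs than in non-RGCs. The share that passed was 0.121% after removal of the GC trend and 0.0639% after removal of both. The fitted differences, RGC minus non-RGC, were -0.54 ± 0.39 for *Rmst*, 0.12 ± 0.35 for *Miat*, 0.08 ± 0.14 for *Six3os1*, 0.04 ± 0.25 for *Malat1* and -0.16 ± 0.22 for *Gas5*. Their 95% intervals ran from -1.38 to 0.30, -0.63 to 0.87, -0.24 to 0.39, -0.50 to 0.58 and -0.63 to 0.31, so differences of that size were not excluded. *Tug1* alone of the 8 had an unadjusted limma p below 0.05.

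The other annotated long noncoding genes were counted beside the protein-coding genes, with no test between the classes. Of 955 annotated long noncoding genes tested in RGCs, 204 (21.4%) were higher and 30 (3.14%) lower, with a median log2 fold change of 0.43, whereas of 13776 protein-coding genes 15.1% were higher and 23.4% lower, with a median of -0.05. In non-RGCs 57 of 821 long noncoding genes (6.94%) were higher and 15 (1.83%) lower, with a median of 0.34 against -0.05 for protein-coding genes. Of protein-coding genes 3.46% were higher and 7.02% lower there. The median GC content of the long noncoding genes was 48.2% and that of the protein-coding genes 49.7%. After removal of the GC trend, 69 long noncoding genes (7.23%) were higher and 8 (0.838%) lower in RGCs (median 0.44). Of protein-coding genes 601 (4.36%) were higher and 1341 (9.73%) lower. With both trends removed 20 long noncoding genes (2.09%) were higher and 8 (0.838%) lower (median 0.29). Of protein-coding genes 1.87% were then higher and 4.38% lower, so the shares higher lay close together. In non-RGCs 12 long noncoding genes (1.46%) were higher and 4 (0.487%) lower with the GC trend removed, against 0.697% and 0.599% of protein-coding genes. With both removed 7 (0.853%) were higher and 6 (0.731%) lower, against 0.773% and 1.02%. The median of the 8 RNAs was 0.15 in RGCs and 0.15 in non-RGCs, where that of all genes tested was -0.00 and -0.03. Among a list of other long noncoding RNAs of nervous tissue, 16 of 38 were tested in RGCs, with 5 higher, 1 lower and a median of 0.32. *A830082K12Rik* (0.84 ± 0.12; limma adjusted p = 0.00251) and *Ftx*, an RNA of the X inactivation center (1.00 ± 0.18; limma adjusted p = 0.00494), were higher, and *6330403K07Rik* was lower (-0.56 ± 0.05; limma adjusted p = 0.000657). After removal of the GC trend 2 were higher and 2 lower, and after removal of both none passed in limma (6 had an unadjusted p under 0.05). Of all genes, 16.3% were higher with no trend removed and 4.93% with the GC trend removed. The number higher was 9 without WT RGC C and 3 without mKO RGC B, mKO RGC C, WT RGC A or WT RGC B. In non-RGCs, where 4.18% of all genes were higher, 3 of 17 were higher and none lower (median 0.44). Among them were *Dleu2*, the host of a microRNA cluster (1.14 ± 0.24; limma adjusted p = 0.0228), and *A830082K12Rik* (0.77 ± 0.21; limma adjusted p = 0.0433). After either trend removal none passed there in limma (6 and 5 had an unadjusted p under 0.05). None was called without mKO non-RGC A, mKO non-RGC B or WT non-RGC B, and 1 was without mKO non-RGC C.

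Transcripts for proteins of the bodies that *Malat1* and *Neat1* belong to were lower more often than they were higher in mKO RGCs. Only RNA was counted, and protein levels were not measured. Of 24 genes of nuclear speckle proteins, 1 was higher and 8 were lower, with a median of -0.15. *Clk4*, a kinase of splicing factors, was higher (0.30 ± 0.09; limma adjusted p = 0.0353, a call lost without any mKO RGC library or WT RGC B), and *Rnps1* and *U2af2*, which act in splicing, were lower (-0.57 ± 0.06 and -0.58 ± 0.08; limma adjusted p = 0.000979 and 0.00166). Of 24 genes of paraspeckle proteins, 3 were higher and 13 lower, with a median of -0.26. Without mKO RGC A or mKO RGC B 8 were lower. *Zc3h6* and *Srsf10* were higher (0.96 ± 0.12 and 0.36 ± 0.07; limma adjusted p = 0.00129 and 0.00587), and *Smarca4*, the ATPase of a chromatin remodeller, and *Dazap1* were lower (-0.46 ± 0.05 and -0.60 ± 0.07; limma adjusted p = 0.00108 and 0.00125). The median GC content of both lists was 44.5%, and with the GC trend removed 13 genes of either list were lower. With both trends removed 3 speckle and 7 paraspeckle genes were lower. All genes tested gave 21.2% lower with no trend removed, 8.92% after removal of the GC trend and 4.06% after removal of both. Of all genes tested in non-RGCs, 6.43% were lower and 4.18% higher. There 1 of the 24 speckle genes was lower (*Srrm2*, -0.51 ± 0.09; limma adjusted p = 0.0149). That number was 6 without mKO non-RGC C and 0 without mKO non-RGC B or WT non-RGC B. Of the paraspeckle genes 1 was higher there (*Zc3h6*, 0.98 ± 0.24; limma adjusted p = 0.0331) and 3 were lower. Among the lower ones were *Ahdc1* and *Hnrnpul1* (-0.85 ± 0.12 and -0.54 ± 0.13; limma adjusted p = 0.00706 and 0.0316). The *Zc3h6* call was lost without any library but WT non-RGC C. The number lower was 5 without mKO non-RGC C and 1 without any other library but WT non-RGC A. With both trends removed no gene of either list passed in non-RGCs in limma (5 and 6 had an unadjusted p under 0.05).

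The genes that share features with *Gas5* and *Snhg11* were counted by list. Of 8 other small RNA host genes tested in RGCs, *Snhg4* was higher (0.46 ± 0.15; limma adjusted p = 0.0474) and *Snhg6* lower (-0.40 ± 0.11; limma adjusted p = 0.0304), and 6 did not pass (median 0.02). Each call is 12.5% of the list, where 16.3% of all genes were higher and 21.2% lower. Of the fits that left out 1 library, the *Snhg4* call held only in that without WT RGC C, and the *Snhg6* call was lost without any mKO RGC library or WT RGC A. In non-RGCs, where 4.18% of all genes were higher, *Snhg7* was higher (0.84 ± 0.22; limma adjusted p = 0.0432) and the other 7 did not pass (median of the list 0.40). The *Snhg7* call held only without WT non-RGC A. After removal of the GC trend, where 6 of these genes had a value, *Snhg6* alone was lower in RGCs and none passed in non-RGCs in limma (1 had an unadjusted p under 0.05). Of 79 cytosolic ribosomal protein genes tested in RGCs, whose messages begin like *Gas5*, 73 were lower and 2 higher, with a median of -0.55. *Rpl29* and *Rpl28* were lower (-0.91 ± 0.09 and -0.72 ± 0.07; limma adjusted p = 0.000730 and 0.000740), and *Rpl24* and *Rps15a* higher (0.36 ± 0.10 and 0.16 ± 0.05; limma adjusted p = 0.0262 and 0.0487). The number higher was 0 without mKO RGC A, mKO RGC C or WT RGC B and 1 without mKO RGC B or WT RGC A. Their median GC content was 50.9%, and 48 were lower after removal of the GC trend and 35 after removal of both, with 0 and 1 higher. All genes tested gave 21.2%, 8.92% and 4.06% lower under these settings. In non-RGCs none of 80 passed in limma (2 had an unadjusted p under 0.05; median -0.17), with *Rpl4* at -0.23 ± 0.18 and *Rps3* at 0.01 ± 0.19, and 5 were lower without mKO non-RGC C.

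The profiles over the 12 libraries showed which genes ran closest to each RNA. The measure was the root mean square difference of log2(RPM + 1), each gene centred on its own mean, over 12004 genes averaging 50 or more in both tables (12005 for *Neat1*), and it says nothing of shared function. *Six3os1* and *Tug1* had the closest neighbours, *Man1b1* (0.0574) and *Jmjd8* (0.0605) for the former and *Hspa13* (0.0584) and *Glce* (0.0601) for the latter. *Gas5* ran with *Srp19* (0.0880) and *Dcun1d5* (0.0888), *Neat1* with *Cspp1* (0.104) and *Trmt13* (0.115), *Miat* with *Leng8* (0.118) and *Leprel2* (0.131), and *Malat1* with *Zcrb1* (0.148) and *Ptpmt1* (0.155). *Rmst* had *Gm4924* (0.207) and *5830428H23Rik* (0.214). *Snhg11* had the most distant ones, *Rasgrp2* (0.455) and *Vwa5b2* (0.492). Among the 8 RNAs, *Gas5* and *Malat1* were the closest pair (0.159) and *Six3os1* and *Snhg11* the farthest (2.28).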

How the data were processed

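RNA-seq was made from RGC and non-RGC fractions of P0 mKO and WT retinas, 3 libraries per group. Reads were single end. The authors used STAR (version 2.3.1z4 per the labels) with mm10, then featureCounts and DESeq. The deposited signal columns are reads divided by size factors and averaged over a genotype. Deposited fold changes, p-values and adjusted p-values of the authors' own comparison were not used. A mean is a sum of 3 whole read numbers, each times a fixed step, so each library's reads were recovered. For 100% of genes with reads exactly 1 combination matched, shifted steps matched 0 of 519 genes in mKO RGCs, and size factors recomputed from the reads equalled the steps. In simulated means of mKO RGCs 7027 of 7027 genes came back exactly.

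Limma 3.58.1 (R 4.3.3, trend) was run on log2(reads divided by size factor + 1) for genes averaging 10 or more in either genotype, within each table, two-sided, with Benjamini-Hochberg adjustment over all genes tested. This scale understates the change of low genes. The interaction used all 4 groups. In simulated RGC libraries with 200 changed genes limma called 184 of them and 11 others among 15858 genes. The simulation used 2-fold changes, the same dispersion for every gene and no trend with GC content. Its number of false calls therefore does not carry over to the real libraries. Positions, lengths and GC content came from GENCODE M21 (GRCm38), matched for 92.1% of gene names. From each library, trends with GC content (or with that and read density) were removed by lowess (share 0.3) or over 300 neighbouring genes. Other alternatives were a pseudocount of 0.5, no filter, scaling by total reads or by the 75th percentile, limma voom, adding back removed duplicates, and leaving out each library. Python 3.11.15 was used, with exact permutation tests from scipy 1.17.1. Named beside the 8 RNAs are *Ezh2*, the genes next to or over each RNA (some are not reported here), from each list the 2 smallest p in each direction (or its 2 most abundant genes), and the 2 nearest profiles. Members and lists were chosen with earlier results of these data known. A count of 0 allows up to 3 reads, for counting error only.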

Additional observations from a re-analysis of the deposited data

How the results depend on the processing

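No paired analysis was possible because the recovered libraries carry no replicate number, so a replicate block could not be fitted. The number of RNAs called in RGCs, 3, was 1 with the GC trend removed, 0 with the GC and read-density trends removed, and 2 to 3 when each library was left out in turn. In non-RGCs 1 was called, against 2 with total-read scaling, 0 with either trend removal, and 0 to 2 with each library left out (0 without mKO non-RGC B, 2 without WT non-RGC A). The number whose change differed between fractions was 0 throughout. Total-read scaling moved the median of all genes by 0.12 in RGCs and 0.17 in non-RGCs, and the share of calls that were higher from 43.5% to 63.3% and from 39.4% to 75.0%. Over all genes, calls went from 6027 to 2103 (GC trend removed) or 920 (both) in RGCs, and from 1626 to 207 or 268 in non-RGCs, where without mKO non-RGC B 47 were higher and 92 lower. Leaving a library out also cut the calls by over 1.5 times without mKO RGC A, mKO RGC C, WT non-RGC A or WT non-RGC B. Over the 8 alternatives other than leaving out a library, 16 fold changes or differences of single RNAs changed sign. With the GC trend removed these were *Malat1* at -0.12, *Miat* at 0.038, *Six3os1* at 0.043 and *Gas5* at -0.19 in RGCs, *Malat1* at -0.035 and *Tug1* at -0.090 in non-RGCs, and the differences between fractions of *Malat1* at -0.085 and *Neat1* at -0.047. With both trends removed they were *Miat* at 0.15, *Six3os1* at 0.11 and *Gas5* at -0.16 in RGCs, *Tug1* at -0.074 in non-RGCs and the *Neat1* difference at -0.19. Total-read scaling gave differences of -0.0080 for *Malat1* and -0.046 for *Neat1*, and limma voom gave -0.011 for *Neat1*. None of these passed the test, and the cause was not tested. With each library left out in turn, values crossed 0 for *Malat1* (-0.042 to 0.34), *Snhg11* (-0.010 to 0.37) and *Gas5* (-0.077 to 0.16) in RGCs, for *Malat1* (-0.053 to 0.21) and *Tug1* (-0.015 to 0.15) in non-RGCs, and for the differences of *Malat1* (-0.15 to 0.24), *Neat1* (-0.21 to 0.18), *Miat* (-0.11 to 0.32) and *Gas5* (-0.29 to 0.0045). The *Neat1* values rest on 19 to 75 reads per library.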
